A study of Mus musculus with 6 samples.

Results

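Growth hormone (GH) acts on target cells through a pathway of receptor, kinase, transcription factors, adaptor, phosphatases and induced inhibitors, and the 10 genes Ghr, Jak2, Stat3, Stat5a, Stat5b, Shc1, Ptpn1, Ptpn11, Cish and Socs3 stand here for those roles. The members were all array rows with 1 of these symbols as their single annotated gene, which gave 12 of the 21446 rows. Of these genes 8 had 1 row, while Jak2 and Ptpn1 had 2 rows each, called row 1 and row 2. Every member row held a value on all 6 arrays, as did 17414 rows of the whole table.

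Bone came from 4-week-old lit/lit mice (C57BL/6J-Ghrhr<lit>), in which the gene of the GH-releasing hormone receptor is disrupted in both the treated animals and the controls. Each animal received 1 subcutaneous dose of GH (4 mg/kg) or of PBS, and tissue was taken 6 or 24 hours later. Each sample was RNA pooled from 2 animals, and each of 6 dual-channel arrays set a GH pool in Cy5 against a PBS pool in Cy3. Replicates 1 to 3 were the 6-hour arrays and replicates 4 to 6 the 24-hour arrays. Values are log2 ratios of GH over PBS, so 1 is a doubling and -1 a halving. That direction is likely from the dyes and names in the labels but is not stated in the table. No array had the dyes exchanged, so a dye effect of a probe adds to its ratio at either time. The tissue was ground whole, and in such bulk RNA fewer cells of a type and less RNA per cell cannot be told apart. Ratios carry no level, so the identity of the tissue and the abundance of each transcript could not be checked against marker genes.

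As background, GH binds a receptor dimer encoded by Ghr, and the kinase JAK2 bound to the receptor then phosphorylates STAT5A, STAT5B and STAT3. SHC1 links the receptor to the Ras pathway, and the phosphatases PTPN1 and PTPN11 act on the receptor complex. STAT5 dimers enter the nucleus and bind the palindrome TTCNNNGAA, and the gene of the inhibitor CIS, Cish, is a classical target. CIS and SOCS3 bind activated cytokine receptors and damp the signal, which closes the feedback loop. Much of this pathway is switched by phosphorylation, which an RNA array does not measure.

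Promoter windows of RefSeq (GRCm38.p6), from 250 bases before to 50 after each annotated start, were searched for TTCNNNGAA, a palindrome that reads the same on both strands, with overlapping matches counted. Of the 10 genes, Cish and Socs3 had a match and the other 8 had none in any of their windows. The Cish window held 2 matches, at bases 1 to 9 and 12 to 20 counted from the annotated start, and the Socs3 window held 1, at bases -154 to -146. Of all 32851 windows 8.3% held at least 1 match and 0.457% at least 2. A match is a description of these letters and not evidence of binding. With a match in 8.3% of all windows, its absence from the windows of the other 8 genes does not set their roles apart. The stretches with the matches are shown with the matches in capitals and everything else in lower case. The Cish stretch is chr9:107296599-107296678 on the plus strand, and the Socs3 stretch is chr11:117969467-117969566 on the minus strand.
Cish: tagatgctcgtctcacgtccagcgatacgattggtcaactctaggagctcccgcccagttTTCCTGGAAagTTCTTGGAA
Socs3: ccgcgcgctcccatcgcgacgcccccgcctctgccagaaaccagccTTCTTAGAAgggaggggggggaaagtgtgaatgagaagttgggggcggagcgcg

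Over both times together, Cish rose and Stat5a fell with GH, and the other 10 member rows did not pass the test. Stat5a also fell at 24 hours taken alone. At 6 hours 0 of the 12 rows passed, and 0 differed between 24 and 6 hours, a comparison in which 0.0% of all rows passed. Ratios were tested row by row with limma across 19326 rows, with Benjamini-Hochberg adjustment and a threshold of 0.05. The members' counts are to be read against the share of all rows that passed. At 6 hours 3.38% of all rows passed (2.75% higher and 0.636% lower with GH), against 0 of 12 member rows. At 24 hours 21.3% passed (12.4% higher and 8.87% lower), against 1 of 12, and over both times 35.5% (19.2% higher and 16.3% lower), against 2 of 12. At an unadjusted p under 0.05 the limma counts were 2 of 12 member rows at 6 hours, 4 at 24 hours and 5 over both times. Among all 19326 rows the same counts were 5125, 7875 and 9406. The median size of the fitted ratio, whatever its sign, was 0.15 over the member rows at 6 hours and 0.28 over all rows. At 24 hours these were 0.23 and 0.37.

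**Figure D1:**
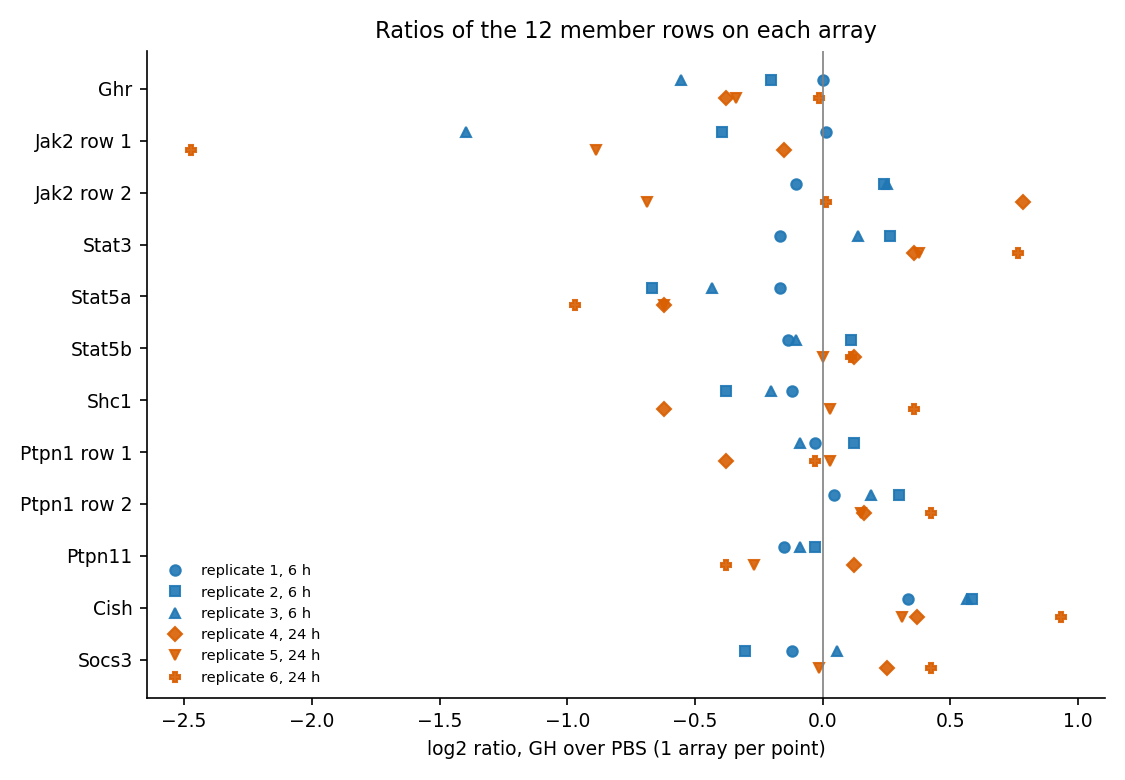
Log2 ratios of GH over PBS (horizontal axis) of the 12 member rows, 1 point per array, blue for the 3 arrays at 6 hours and orange for the 3 at 24 hours. Cish and Ptpn1 row 2 lie above 0 on all 6 arrays and Stat5a below 0 on all 6, while Jak2 row 1 reaches -2.47 on replicate 6.

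The receptor gene Ghr had log2 ratios of 0, -0.20 and -0.56 on replicates 1 to 3 and of -0.38, -0.34 and -0.0145 on replicates 4 to 6. No array lay above 0, and the 2 times covered nearly the same range. The fitted mean was -0.25 ± 0.15 (SE, n = 3 arrays) at 6 hours and -0.24 ± 0.15 at 24 hours, neither past the threshold (limma adjusted p = 0.325 and 0.264). Over both times it was -0.25 (95% interval -0.51 to 0.0088, adjusted p = 0.112).

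Jak2, the kinase that starts the intracellular signal, had fitted ratios of opposite sign on its 2 rows at each time. Row 1 had 0.014, -0.40 and -1.40 at 6 hours and -0.15, -0.89 and -2.47 at 24 hours. Row 2 had -0.10, 0.24 and 0.25 at 6 hours and 0.78, -0.69 and 0.014 at 24 hours. Row 1 was thus below 0 on all arrays but replicate 1, with a spread between arrays (SD 0.73 at 6 hours and 1.19 at 24 hours) as large as its means. Its fitted ratio was -0.59 ± 0.46 at 6 hours and -1.17 ± 0.46 at 24 hours (limma adjusted p = 0.436 and 0.108). Single arrays set the size of both values, which were -0.19 at 6 hours without replicate 3 and -0.52 at 24 hours without replicate 6. Row 2 was at 0.13 ± 0.27 and 0.036 ± 0.27 (adjusted p = 0.782 and 0.930). On the same array row 1 was below row 2 in 5 of 6 cases, by 0.96 ± 0.97 (SD, n = 6 arrays) on average. The exact two-sided sign-flip p of this difference was 0.0625. It was 0.102 after Benjamini-Hochberg adjustment over the 13 pairs of rows compared within a role, so the rows were not shown to differ. Averaged over both rows, Jak2 had -0.23 ± 0.29 at 6 hours and -0.57 ± 0.29 at 24 hours (limma adjusted p = 0.636 and 0.187).

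Among the STAT genes, the Stat5a row passed the test at 24 hours and over both times, and Stat3 and Stat5b did not pass. The Stat5a ratios were -0.17, -0.67 and -0.43 at 6 hours and -0.62, -0.62 and -0.97 at 24 hours. All 6 arrays lay below 0, and the 2 times overlapped. The fitted mean was -0.42 ± 0.15 at 6 hours (1.34-fold lower, limma adjusted p = 0.136) and -0.74 ± 0.15 at 24 hours (1.67-fold lower, adjusted p = 0.0224). Over both times it was -0.58 ± 0.10 (SE, n = 6 arrays, 1.495-fold lower, adjusted p = 0.0101). Of all rows 8.87% passed as lower at 24 hours and 16.3% over both times, and 10.2% of rows had a smaller p than Stat5a over both times. The 24-hour call ended without replicate 4 (-0.80, adjusted p = 0.0713) or without replicate 6 (-0.62, adjusted p = 0.111).

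Stat5b, the close paralog of Stat5a, stayed near 0, with -0.14, 0.11 and -0.10 at 6 hours and 0.12, 0 and 0.11 at 24 hours. Its fitted ratio over both times was 0.018 (95% interval -0.18 to 0.21, limma adjusted p = 0.879), the narrowest interval of the 12 member rows. On each of the 6 arrays Stat5a had a lower ratio than Stat5b, by 0.032 on replicate 1 and by up to 1.08. The mean difference, Stat5a minus Stat5b, was -0.60 ± 0.37 (SD, n = 6 arrays, exact two-sided sign-flip p = 0.03125). That is the smallest p that 6 arrays allow. It was 1 of 13 pairs of rows compared within a role, chosen after the values were known, and over these 13 pairs the Benjamini-Hochberg value of this exact test was 0.0813. In the RefSeq annotation (GRCm38.p6) Stat5a lies on chromosome 11 with Stat5b and Stat3 as its neighbouring coding genes. The probe sequences were not used here, so cross-hybridization between Stat5a and Stat5b was not tested.

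Stat3 had -0.17, 0.26 and 0.14 at 6 hours and 0.36, 0.38 and 0.77 at 24 hours. It was the only member row whose 6-hour and 24-hour arrays did not overlap, which 8.74% of complete rows also showed. Its fitted ratio was 0.077 ± 0.15 at 6 hours (limma adjusted p = 0.759) and 0.50 ± 0.15 at 24 hours (1.41-fold, adjusted p = 0.0540). Without replicate 1, the array with the smallest spread, the 24-hour ratio of 0.50 passed (adjusted p = 0.0444), as did the ratio over both times (0.35, adjusted p = 0.0438). The difference of 24 hours minus 6 hours was 0.42 (95% interval -0.071 to 0.92, limma adjusted p = 0.980), and 0.0% of all rows passed in that comparison, with 585 of 19326 rows at an unadjusted p under 0.05.

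**Figure D2:**
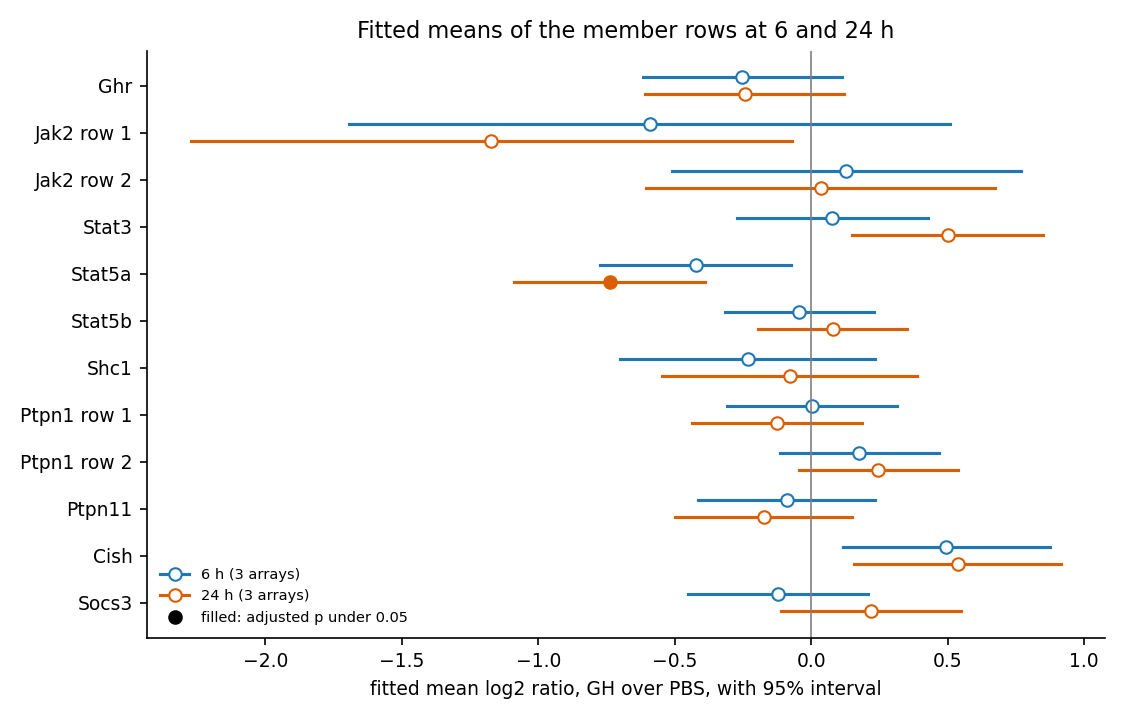
Fitted mean log2 ratios of GH over PBS (horizontal axis) of the 12 member rows, with 95% intervals, at 6 hours (blue) and 24 hours (orange), 3 arrays each. Filled points passed an adjusted p of 0.05, which was so for Stat5a at 24 hours (-0.74) alone.

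None of the 4 adaptor and phosphatase rows passed the limma test at 6 hours, at 24 hours or over both times. At either time alone 0 of them reached an unadjusted p under 0.05, and over both times Ptpn1 row 2 did (limma unadjusted p = 0.0459). Shc1, whose protein couples the receptor to Ras, had -0.12, -0.38 and -0.20 at 6 hours and -0.62, 0.029 and 0.36 at 24 hours. Its 24-hour arrays lay on both sides of 0 and spanned the 6-hour values. Its fitted ratios were -0.23 ± 0.19 and -0.079 ± 0.19 (limma adjusted p = 0.470 and 0.784). Ptpn11, which encodes the phosphatase SHP2, had -0.15, -0.029 and -0.089 at 6 hours and 0.12, -0.27 and -0.38 at 24 hours, with 5 of 6 arrays below 0. Its ratio over both times was -0.13 (95% interval -0.36 to 0.097, adjusted p = 0.305).

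Ptpn1, which encodes the phosphatase PTP1B, also had rows whose ratios lay apart, though on a smaller scale than Jak2. Row 1 had -0.029, 0.12 and -0.089 at 6 hours and -0.38, 0.029 and -0.029 at 24 hours. Row 2 had 0.043, 0.30 and 0.19 at 6 hours and 0.16, 0.15 and 0.42 at 24 hours. Row 2 was above 0 and above row 1 on all 6 arrays, while row 1 scattered around 0. Over both times row 2 had 0.21 ± 0.086 (1.16-fold, limma adjusted p = 0.0967) and row 1 had -0.062 ± 0.092 (adjusted p = 0.615). Row 1 minus row 2 was -0.27 ± 0.19 (SD, n = 6 arrays, exact sign-flip p = 0.03125, 0.0813 over the 13 pairs).

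Read as GH over PBS, the likely direction, the fitted ratio of Cish was the highest of the member rows at both times and that of Jak2 row 1 the lowest, an order that turns around if the direction does. The Cish ratios were 0.33, 0.59 and 0.57 at 6 hours and 0.37, 0.31 and 0.93 at 24 hours. All 6 arrays lay above 0, with the 24-hour values on both sides of the 6-hour ones. The fitted mean was 0.49 ± 0.16 at 6 hours (1.41-fold, limma adjusted p = 0.118) and 0.54 ± 0.16 at 24 hours (1.45-fold, adjusted p = 0.0552), neither past the threshold. The 24-hour value was 0.34 without replicate 6. Over both times Cish rose by 0.52 ± 0.11 (SE, n = 6 arrays, 1.43-fold, adjusted p = 0.0166). Of all rows 19.2% passed as higher over both times, and 17.7% of rows had a smaller p than Cish. The call over both times ended without replicate 2 (0.49, adjusted p = 0.0657) or without replicate 3 (0.50, adjusted p = 0.0635).

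Socs3, the second inhibitor gene, had -0.12, -0.30 and 0.057 at 6 hours and 0.25, -0.0145 and 0.42 at 24 hours. The arrays lay on both sides of 0 at each time, and the times overlapped. Its fitted ratio was -0.12 ± 0.14 at 6 hours, 0.22 ± 0.14 at 24 hours and 0.049 (95% interval -0.19 to 0.28) over both times, with limma adjusted p of 0.595, 0.269 and 0.715. On each array Cish was above Socs3, by 0.12 to 0.89. The mean difference was 0.47 ± 0.26 (SD, n = 6 arrays, exact sign-flip p = 0.03125, 0.0813 over the 13 pairs). Both inhibitor genes carry a TTCNNNGAA match in the windows shown above, so the presence of a match did not separate the row that rose from the one that did not pass.

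**Figure D3:**
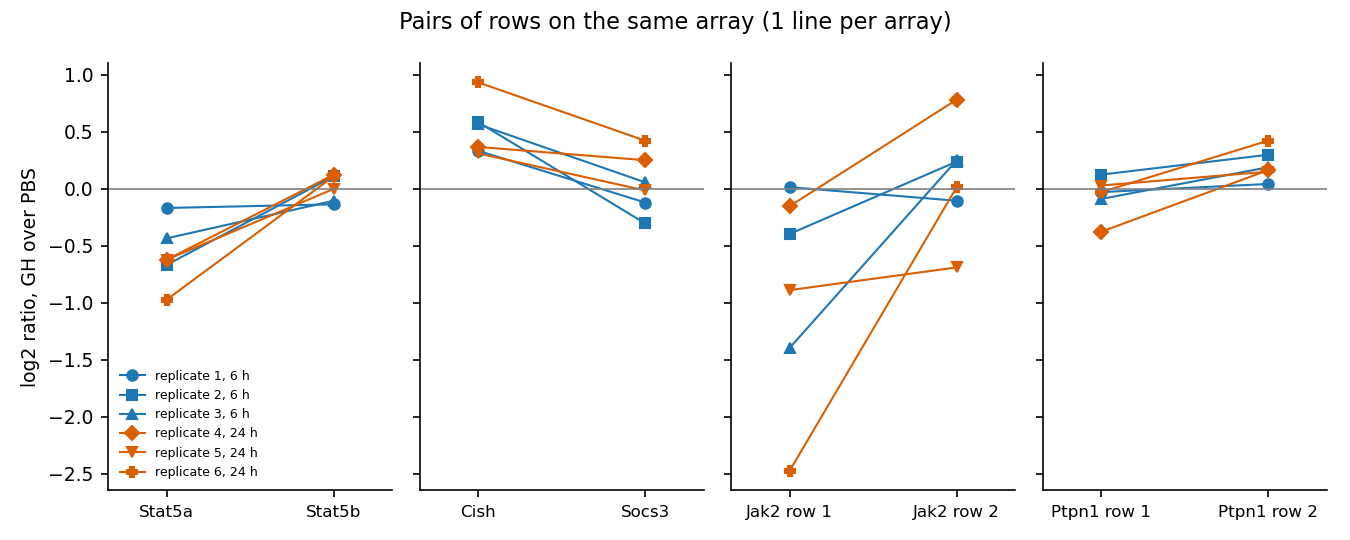
Log2 ratios of GH over PBS (vertical axis) of 4 pairs of rows, with 1 line per array, blue at 6 hours and orange at 24 hours. Stat5a lies below Stat5b, Cish above Socs3 and Ptpn1 row 1 below row 2 on all 6 arrays, and Jak2 row 1 below row 2 on 5 of 6.

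Taken by role, the medians of the fitted ratios were small at both times. Receptor and kinase rows had medians of -0.25 at 6 hours and -0.24 at 24 hours (3 rows), and STAT rows of -0.043 and 0.078 (3 rows). Adaptor and phosphatase rows had -0.044 and -0.10 (4 rows), and inhibitor rows 0.19 and 0.38 (2 rows). Over all rows the medians were -0.020 at 6 hours and -0.00012 at 24 hours. The direction was the same on all 6 arrays for 3 of the 12 member rows, Cish, Ptpn1 row 2 and Stat5a, against 33.4% of all complete rows. Each of these 3 rows had an exact sign-flip p of 0.03125 over its 6 arrays, unadjusted and the smallest possible.

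The difference between the times was largest in size for Jak2 row 1 (-0.58), Stat3 (0.42), Socs3 (0.34) and Stat5a (-0.32). In limma 0 of the 12 member rows passed or reached an unadjusted p under 0.05. Of all 19326 rows 0.0% passed and 585 reached that unadjusted p, so the members' count does not set them apart. The intervals were wide. That of Cish, 0.042 (95% interval -0.49 to 0.58), does not show that its response at 24 hours equalled that at 6 hours. With 3 arrays against 3, an exact permutation test of 1 row cannot go below p = 0.1.

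Technical features of the arrays are set beside these ratios here. The SD of all log2 ratios ranged from 0.466 on replicate 1 to 0.913 on replicate 6, and over all rows the correlation of replicate 1 with another array was 0.223 to 0.360, while pairs without it gave 0.561 to 0.819. Replicate 1 gave the value nearest to 0 for Ghr, Jak2 row 1, Stat5a and Ptpn1 row 2, but not for the other rows, Cish among them. Replicate 6 gave the most extreme values of Cish, Stat5a, Stat3, Jak2 row 1, Ptpn1 row 2, Ptpn11 and Socs3. For Jak2 row 2, Shc1 and Ptpn1 row 1 these were on replicate 4, for Ghr on replicate 3 and for Stat5b on replicate 1. The labels give replicates 4 and 6 a different prefix in their output file names from the other 4 arrays. Among the 4 arrays with the common prefix, where replicate 5 alone stands for 24 hours, Stat5a had -0.52 over both times (limma adjusted p = 0.129) and Cish 0.40 (adjusted p = 0.157). Both values kept their sign and lost their call. Of the neutrophil lineage markers 4 of 9 rows were lower at 24 hours (8.87% of all rows were). Their medians were 0.11, -0.56 and -1.25 on the 6-hour arrays and -2.0, -0.79 and -0.89 on the 24-hour arrays. Skeletal muscle markers had medians of 0.098, 0.59 and 1.22, and then 0.90, 0.098 and 0.24, with all 9 rows above 0 in the mean. Over both times 3 of the 9 rows passed as higher and 0 as lower, where 19.2% and 16.3% of all rows did. The part of spread, prefix and cell makeup in the members' ratios was not tested.

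**Figure D4:**
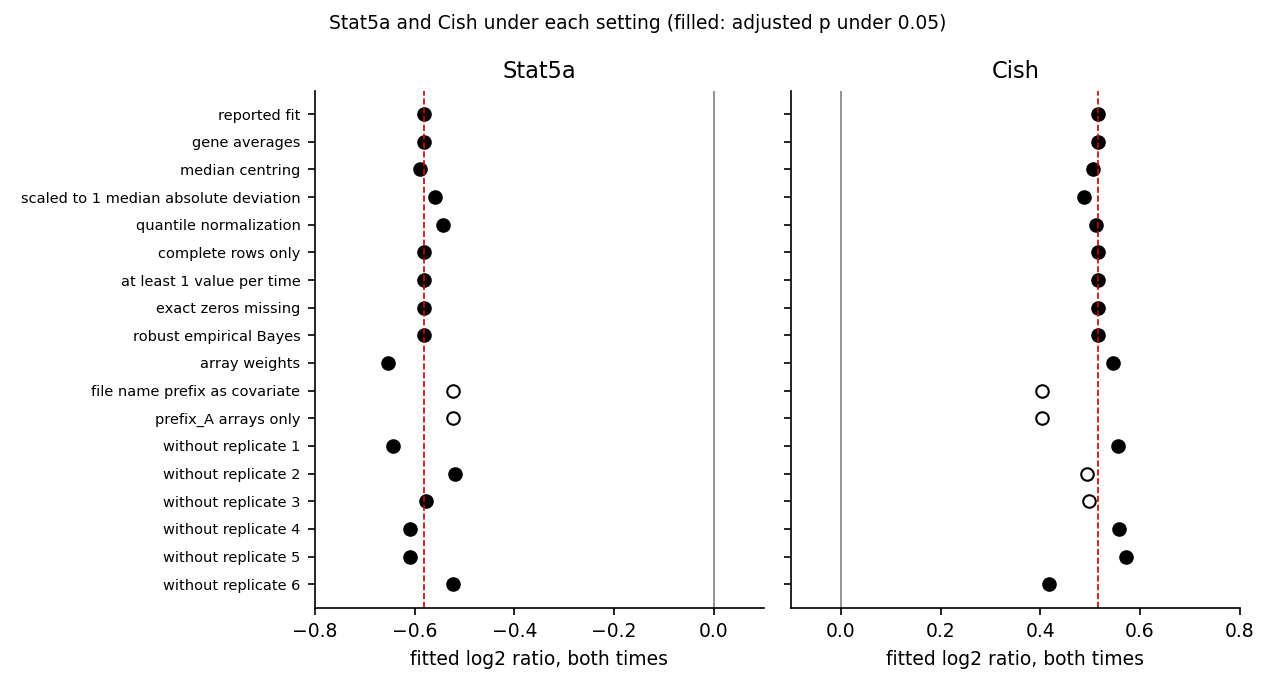
Fitted log2 ratio over both times (horizontal axis) of Stat5a (left) and Cish (right) under the reported fit and each alternative, with the reported value as a dashed red line and filled points where the adjusted p was under 0.05. Stat5a stays between -0.65 and -0.52 and Cish between 0.40 and 0.57, and open points mark the settings that ended the call.

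Other genes of GH and cytokine signalling were taken from 9 lists, of which 63 genes with 95 rows were measured. Over both times 11 rows rose and 13 fell, 25.3% of the 95 rows against 35.5% of all rows, and at 6 hours 1 row rose. The other JAK and STAT genes gave the lowest list median, -0.90 over both times and -1.25 at 24 hours. Over both times 0 rows passed as higher and 4 of 7 as lower, where 16.3% of all rows passed as lower. At 24 hours 2 of the 7 rows passed as lower, where 8.87% of all rows did. Tyk2, a kinase of interferon and interleukin receptors, fell by 1.43 on the log2 scale over both times (limma adjusted p = 0.00791) and by 1.84 at 24 hours (adjusted p = 0.0187). Stat4, a transducer of interleukin-12, fell by 1.05 over both times (adjusted p = 0.0157). Stat6, of the interleukin-4 pathway, fell by 1.46 (adjusted p = 0.0482) and reached -4.06 on 1 array. Jak3, the kinase of the common gamma chain, fell by 0.90 (adjusted p = 0.0490), although it was at 0.74 on replicate 1. The remaining 3 rows of the list, of Jak1 (-0.20) and Stat2 (-0.13 and 0.13), did not pass. The rows of Tyk2, Stat4 and Stat6 were below 0 on all 6 arrays, with -0.12, -0.25 and -0.27 on replicate 1. Of all complete rows 33.4% had the same sign on all 6 arrays. The neutrophil marker median given above was below 0 on all arrays but replicate 1, and its part in these ratios was not tested.

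**Figure D5:**
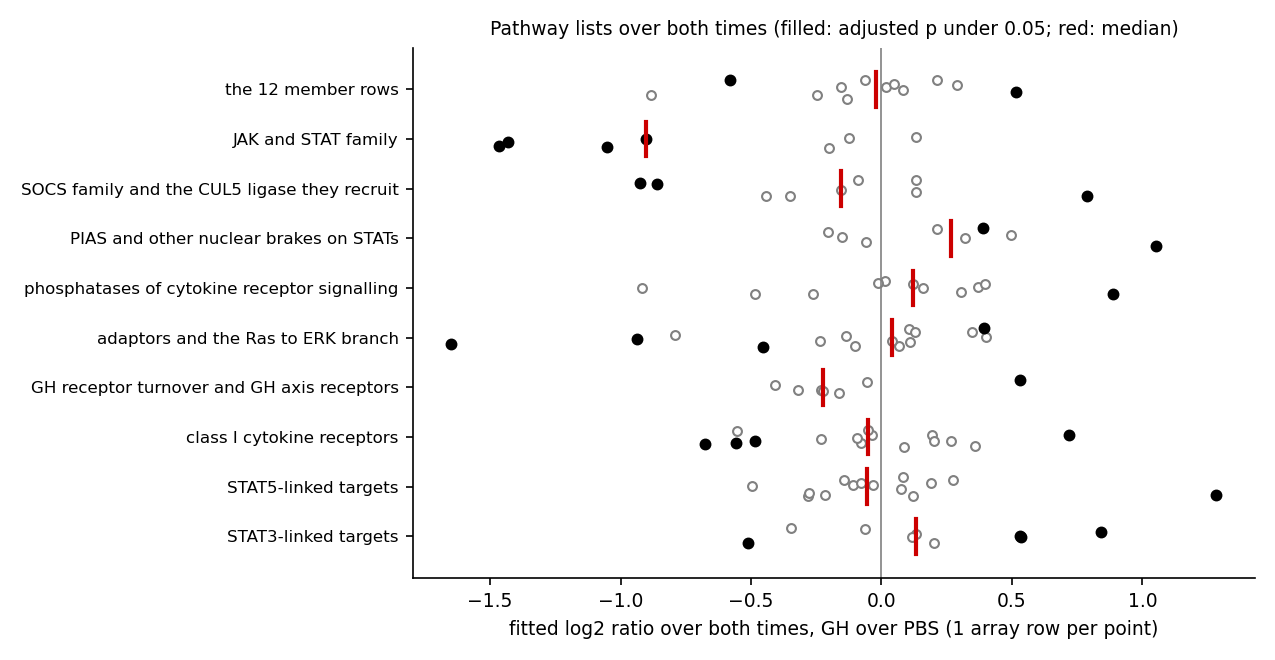
Fitted log2 ratios of GH over PBS over both times (horizontal axis), 1 point per array row, for the 12 member rows and the 9 lists of related genes, with filled points past an adjusted p of 0.05 and red bars at the medians. The other JAK and STAT genes have the lowest median, -0.90, and the member rows have a median of -0.022.

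Among SOCS family and ligase genes 1 row rose and 2 fell of 9 over both times, 33.3% against 35.5% of all rows. Cul5, the cullin that SOCS proteins recruit to mark receptors for degradation, rose by 0.79 ± 0.12 (limma adjusted p = 0.00674). Socs7 had a row that fell by 0.86 (adjusted p = 0.00924) and another at -0.44 that did not pass, and 1 of 2 rows of Socs6 fell by 0.93 (adjusted p = 0.0389) while the other was at 0.13. Of 8 rows of PIAS and other nuclear brakes on STATs 2 rose and 0 fell, 25.0% against the same 35.5%. These were 1 of 3 rows of Pias2 (1.05, n = 5 arrays, adjusted p = 0.00610) and 1 of 2 rows of Pias3 (0.39, adjusted p = 0.0158). Among the other phosphatases, 1 of 11 rows rose and 0 fell, 9.09% against 35.5% of all rows. It was a row of Ptpn2 (0.89, adjusted p = 0.0145), whose product acts on JAK1 and JAK3. The other 2 rows of Ptpn2 (0.12 and 0.16) did not pass.

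Of 15 rows of adaptors and of the Ras to ERK branch, 1 rose and 3 fell over both times, 26.7% against 35.5% of all rows. Both rows of Map2k1, the gene of the kinase MEK1, fell (-1.65, n = 4 arrays, adjusted p = 0.00856, and -0.45, adjusted p = 0.0206, both limma), as did Sh2b3, which encodes the JAK2-binding adaptor LNK (-0.94, adjusted p = 0.0108). Of 3 rows of Nras 1 rose (0.39, adjusted p = 0.0498), and the others (-0.79 and 0.11) did not pass. Among the few measured genes of GH receptor turnover, 1 of 7 rows rose, 14.3% against the same 35.5%. It was 1 of 4 rows of Btrc (0.53, adjusted p = 0.0235), which encodes the ubiquitin ligase subunit that binds the GH receptor. Of 15 rows of class I cytokine receptors, the structural family of the GH receptor, 1 rose and 3 fell, again 26.7%. Csf2ra (-0.67, adjusted p = 0.00847), Il4ra (-0.48, adjusted p = 0.0253) and a row of Lifr (-0.56, adjusted p = 0.0428) were lower, and a row of Il7r (0.72, adjusted p = 0.0166) was higher. The second rows of Lifr (0.36) and Il7r (-0.55) had the opposite sign and did not pass.

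Of 14 rows of genes linked to STAT5 beside Cish, 1 passed as higher and 0 as lower over both times, where 19.2% and 16.3% of all rows did, and their fitted ratios at 24 hours went down to -0.63. The row that rose was 1 of 3 of Igf1, the gene of the main growth factor under GH control, at 1.28 ± 0.12 (limma adjusted p = 0.00263), while the other 2 had ratios of the opposite sign that did not pass (-0.49 and -0.22, adjusted p = 0.0548 and 0.508). That Igf1 row also passed at 6 hours (1.38, adjusted p = 0.0303), the only row of the 95 to do so. Of 9 rows of genes linked to STAT3, 3 rose and 1 fell, 44.4% of them against 35.5% of all rows. Both rows of the immediate-early gene Fos rose (0.84 and 0.53, adjusted p = 0.00870 and 0.0211), as did Bcl3 (0.53, adjusted p = 0.0266), and the survival gene Mcl1 fell by 0.51 (adjusted p = 0.0257).

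By the root mean square difference over the 6 arrays, 10390 complete rows of other named genes were set against each member row. The rows most like Cish were those of Avl9 (0.072), Armc6 (0.084) and Smurf2 (0.097), and the rows most like Stat5a those of Apobec3 (0.084), Lmtk2 (0.095) and Rbbp6 (0.10). Ghr was nearest to Esf1 (0.10), Atf6 (0.10) and Zfp800 (0.10), and Stat3 to Dop1b (0.078), Otub1 (0.078) and Ppp1cb (0.081). The nearest row to Jak2 row 1 was that of Smim10l1 (0.30), and this distance grows with the spread of a row's own values. These distances describe 6 arrays that differ in spread.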

How the data were processed

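The authors deposited 1 log2 ratio of the array's channels per row and array, read here as GH over PBS. Per the labels' protocols, bone RNA was amplified linearly from an oligo(dT) primer with a T7 promoter and labelled with Cy5 (GH) or Cy3 (PBS). Not given in the sources used here: image extraction, spot filters and normalization. Signal over background is therefore unknown. Array medians lay between -0.0145 and 0.0286. Times and replicate numbers came from the labels. The platform annotation gave 1 symbol for 11813 rows, more than 1 for 559 and no symbol for 9074, and 0 rows with several symbols held a member. All 12 member rows matched a RefSeq gene identifier (GRCm38.p6), with 0 symbols changed.

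Each row with at least 2 values per time was fitted alone with limma 3.58.1 in R 4.3.3 (lmFit and eBayes, 1 mean per time, prior of 2.46 degrees of freedom), since rows of a gene can disagree. Tests were two-sided. On simulated ratios of 19326 rows, changes of 1 were put into 100 rows, changes of 0.5 into 50 and changes of 2 into 50. Those of 1 were recovered in 12%, 19% and 56% at 6 hours, 24 hours and over both times, and those of 0.5 in 0%. Those of 2 were recovered in 66%, 72% and 94%. Fewer rows were changed there than passed in the data, which makes the adjustment stricter. These shares therefore do not carry over to the reported fit. Exact tests flipped the signs of 6 values. The members and lists were chosen with earlier results of these data known. All member rows were named, and from each list up to 4 genes with the smallest p among those past the threshold, or as values. Alternatives were gene averages, centring, scaling, quantile normalization, rules on missing values and zeros, robust or weighted fits, each time alone, the file name prefix and each replicate left out. Pools held different animals, so the spread between arrays holds animal and technical variation.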

Additional observations from a re-analysis of the deposited data

How the results depend on the processing

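Each ratio sets GH against PBS within 1 array. The 6-hour and 24-hour arrays share no replicate numbers, so no analysis paired between the times was possible. Of 824 member values recomputed under alternatives, 750 stayed on their side of the threshold with no change to the opposite sign (2 of them, Stat5b at 24 hours in both prefix settings, went to 0), and 0 of the values that had passed changed sign. Many ratios could not move: a mean at 1 time stays the same without a replicate of the other time, as do 6-hour means in both prefix settings. In both prefix settings replicate 5 alone sets the 24-hour mean, because replicates 4 and 6 hold the other prefix. The covariate fit is therefore no second check beside the arrays of the common prefix. An effect of the prefix and the drop to 1 array at 24 hours cannot be told apart there. Most values had not passed to begin with, so the count of 750 does not measure stability. The number of member rows past the threshold at 6 hours (0) was 1 after scaling to 1 median absolute deviation or quantile normalization and 2 with array weights. At 24 hours (1) it was 2 after quantile normalization, 0 with the file name prefix as a covariate or the 4 arrays of the common prefix, and 0 to 2 without 1 replicate. Over both times (2) it was 5 with array weights, 0 in both prefix settings and 1 to 3 without 1 replicate. In the difference it was 0 under all settings run, limma finding 361 to 1040 of all rows at an unadjusted p under 0.05. Array weights raised the share of all rows called over both times to 50.7%. Of all rows, limma called 654 at 6 hours, but 1945 after scaling, 2243 after quantile normalization, 7307 with array weights, 0 with each time alone or the common prefix, and 0 to 1727 without 1 replicate. At 24 hours it called 4116, but 2707 with the time alone, 31 with the prefix covariate, 0 with the common prefix, and 0 to 4961 without 1 replicate. Over both times it called 6868, but 1621 with the prefix covariate, 280 with the common prefix, and 2445 to 7870 without 1 replicate.

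Sign changes touched values that had not passed, most of them near 0, and their cause was not tested. Both prefix settings rest on replicate 5 alone at 24 hours. They gave -0.088 for the Ghr difference of 24 minus 6 hours and -0.022 over both times for Stat5b. For Jak2 row 2 they gave -0.69 at 24 hours and -0.28 over both times. They gave 0.029 at 24 hours for Shc1, and for Ptpn1 row 1 they gave 0.029 (24 hours), 0.015 (both times) and 0.027 (difference). They gave -0.026 and -0.18 for the differences of Ptpn1 row 2 and Cish, and -0.0145 at 24 hours and -0.069 over both times for Socs3. Scaling gave -0.017 for the Ghr difference, -0.076 for Jak2 row 2 at 24 hours, -0.0056 for Stat5b over both times and -0.090 for the Cish difference. Quantile normalization gave -0.0073 for the Ghr difference, -0.036 for Jak2 row 2 at 24 hours and -0.082 for the Cish difference. Median centring gave -0.0010 for the Ghr difference and -0.0028 for Ptpn1 row 1 at 6 hours. Array weights gave 0.041 for Stat5b at 6 hours, and -0.0100 and -0.0285 for the differences of Ptpn1 row 2 and Cish.

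Without 1 replicate, the differences of 24 minus 6 hours ranged from -0.14 to 0.13 for Ghr, -1.09 to 0.072 for Jak2 row 1, -0.47 to 0.27 for Jak2 row 2, -0.064 to 0.43 for Shc1, -0.020 to 0.13 for Ptpn1 row 2, -0.23 to 0.018 for Ptpn11 and -0.16 to 0.16 for Cish. At 6 hours the ranges were -0.015 to 0.20 for Stat3, -0.12 to 0.0032 for Stat5b and -0.059 to 0.048 for Ptpn1 row 1. At 24 hours they were -0.34 to 0.40 for Jak2 row 2 and -0.30 to 0.19 for Shc1. Over both times they were -0.10 to 0.26 for Jak2 row 2, -0.021 to 0.041 for Stat5b, -0.10 to 0.00086 for Ptpn1 row 1 and -0.0022 to 0.11 for Socs3.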
